A study of Mus musculus with 12 samples.

Results

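The replication-dependent histone genes were taken as all rows of the deposited expression table whose symbol begins with Hist1h, Hist2h, Hist3h or Hist4h. They numbered 66 of 18546 genes and fell into 5 H1, 18 H2A, 19 H2B, 11 H3 and 13 H4 genes. The cells were hematopoietic stem cells of C57BL/6 mice aged 10 to 12 weeks, taken from the marrow with the SLAM gate (CD150+CD48-Lin-Sca1+cKit+), and their RNA was sequenced. There were 4 genotypes with 3 libraries each: wild type, NrasG12D/+, Tet2+/- and the compound genotype NrasG12D/+;Tet2+/-. NrasG12D is an allele of the small GTPase gene Nras whose protein signals without the usual stimulus, and Tet2 encodes an enzyme that oxidizes methylated cytosine in DNA. The labels give no promoter or Cre driver for either allele and do not say whether a library came from 1 mouse or from a pool. Libraries were made with a stranded kit from total RNA after ribosomal and mitochondrial RNA had been removed, so transcripts without a poly(A) tail were captured.

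Histones package DNA. H2A, H2B, H3 and H4 form the core particle that DNA wraps around, and H1, the linker histone, binds where DNA enters and leaves it. The genes described here are clustered, mostly without introns, and transcribed chiefly while DNA is being copied. Their mRNAs usually end in a conserved stem-loop instead of a poly(A) tail. The stem-loop binding protein Slbp holds this loop during 3′ end cleavage, translation and decay, and the nuclear protein Npat, a target of cyclin E with Cdk2, drives transcription of the clusters. Hematopoietic stem cells are largely quiescent, so few of them are copying DNA at any time.

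In the GENCODE M21 annotation of mm10, 54 members lay in the Hist1 cluster on chromosome 13, 8 in the Hist2 cluster on chromosome 3, 3 in the Hist3 cluster on chromosome 11, and Hist4h4 alone on chromosome 6. Of the 66, 63 were annotated as protein coding and 3 as pseudogenes (Hist1h2aj, Hist1h2al and Hist3h2bb-ps). The stem-loop was searched in the 3′ UTRs as GGCNCTT, then TTNAG, then NGCC, on the transcript strand. It was found in 39 of the 63 coding members, with a median of 31 bases between the stop codon and the loop and a range of 21 to 58. Of the 24 members without a match, 14 had an annotated 3′ UTR shorter than the 16 bases of the motif, so the search could not find it there. The 39 loops had 5 spellings, given here by 1 member each because the stem differs between the H4 genes and the other classes. Capitals mark the stem-loop, and each sequence is from the GENCODE M21 transcripts.

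Hist1h1c (chr13:23739507-23739532, plus strand, spelling found in 24 members): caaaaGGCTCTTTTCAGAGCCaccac
Hist1h4h (chr13:23531453-23531478, plus strand, spelling found in 7 members): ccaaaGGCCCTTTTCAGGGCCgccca
Hist1h3c (chr13:23745042-23745067, minus strand, spelling found in 5 members): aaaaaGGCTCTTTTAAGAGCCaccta
Hist1h4i (chr13:22040961-22040986, minus strand, spelling found in 2 members): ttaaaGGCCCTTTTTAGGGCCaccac
Hist2h2ac (chr3:96220413-96220438, minus strand, spelling found in 1 member): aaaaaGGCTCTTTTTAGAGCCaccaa

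Both spellings with the stem GGCCC were found only in H4 genes, 9 of them, and the 3 spellings with GGCTC were found in the H1, H2A, H2B and H3 genes and in no H4 gene. In 20 of the 39 the annotated transcript ended within 100 bases after the loop, and in 19 it ran on further, which in Hist1h1d came to 4884 bases. AATAAA, the usual poly(A) signal, was present in the longest annotated 3′ UTR of 17 coding members.

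Promoters were available for 57 of the 66 in a RefSeq table (GRCm38.p6) of 300-base windows, from 250 bases before to 50 after the start. CCAAT, on either strand, was in 84.2% of the members' windows against 37.9% of all 27025 windows. TATAAA was in 57.9% against 14.2%, and ATTTGCA, the core of the octamer that Oct factors bind, in 21.1% against 3.98%. By class, CCAAT was in all 45 windows of H1, H2A, H2B and H3 genes but in 3 of 12 H4 windows, and ATTTGCA was in 6 of 15 H2A and 6 of 16 H2B windows and in none of the other classes. The 120 bases before the start are shown for the member of each class with the smallest p for the Nras allele. Each stretch comes from a single gene and is shorter than the searched window, so it does not stand for its class. Matches elsewhere in the window are not shown. Capitals mark the 3 searched motifs on either strand, where CCAAT on the other strand reads ATTGG. A match is a description of letters only.

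Hist1h1b (chr13:21780626-21780745, minus strand): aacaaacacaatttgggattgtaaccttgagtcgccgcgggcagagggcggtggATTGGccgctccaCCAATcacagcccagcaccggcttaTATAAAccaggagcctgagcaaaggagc
Hist1h2ab (chr13:23750968-23751087, plus strand): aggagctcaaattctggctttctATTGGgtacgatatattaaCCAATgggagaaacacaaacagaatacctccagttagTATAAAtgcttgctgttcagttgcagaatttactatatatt
Hist1h2bn (chr13:21753956-21754075, plus strand): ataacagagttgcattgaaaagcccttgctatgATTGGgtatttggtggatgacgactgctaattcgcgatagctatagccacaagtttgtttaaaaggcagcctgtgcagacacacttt
Hist1h3c (chr13:23745522-23745641, minus strand): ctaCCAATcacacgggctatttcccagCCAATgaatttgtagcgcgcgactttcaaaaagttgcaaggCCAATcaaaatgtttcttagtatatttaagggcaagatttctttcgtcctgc
Hist1h4f (chr13:23551669-23551788, minus strand): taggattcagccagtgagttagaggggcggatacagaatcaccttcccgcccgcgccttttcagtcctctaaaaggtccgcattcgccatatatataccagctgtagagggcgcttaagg

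In these stretches the H1, H2A, H2B and H3 genes each carried CCAAT or its complement, 3 times in Hist1h3c, while the H4 gene carried none of the searched letters.

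Between 19205045 and 36890942 reads per library were assigned to genes. Replicates of a genotype differed by far more than counting error, and the labels do not say that they came from separate mice, so p-values measure the spread between these libraries, which may be in part technical. Of the gate's markers, Kit ran from 64.7 to 86.0 RPKM (reads per kilobase of gene, scaled to the size of the library) over the 12 libraries and Slamf1, which encodes CD150, from 3.17 to 11.3. Ly6a, which encodes Sca1, differed by genotype. It was at 2.21 to 4.96 RPKM in wild type, 5.51 to 8.32 in NrasG12D/+, 3.51 to 4.92 in Tet2+/- and 4.365 to 7.645 in the compound genotype. Flt3, also on the stem cell and gate list, ran from 4.65 to 13.4 over the 12 libraries. Cd48 had no read in any wild-type library and reached at most 1.28 RPKM elsewhere. Of the other blood cells' marker lists, the summed RPKM of 8 erythroid genes was 9.50 to 29.6 over the libraries, that of 8 granulocyte-monocyte genes 89.6 to 127, of 3 B-lineage genes 3.07 to 7.91, of 5 T and NK genes 2.12 to 12.0 and of 6 megakaryocyte genes 24.2 to 57.3, and of those with enough reads to be tested none passed an adjusted p of 0.05 in any comparison. Of the granulocyte-monocyte genes, Elane and Ngp, which define neutrophil precursors, had no read in the wild-type and NrasG12D/+ libraries. Elane had none in the compound libraries either, but Ngp had reads there, and both had reads in Tet2+/- libraries. The sums for that list came mostly from its other genes, and 3 of its 8 genes had enough reads to be tested. Elane and Ngp therefore do not stand for the list.

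Every member had at least 1 RPKM in 3 or more libraries and so entered the tests, which covered 15478 genes. The closest to that limit were Hist3h2ba, with 1 RPKM or more in 5 libraries, and the pseudogene Hist3h2bb-ps, with 6. Of the other members none had fewer than 30.5 reads in the median library, against a median of 267 over members and 603 over all genes tested. Members share sequence: 47 of the 66 were at least 95% identical in coding sequence to another member, and Hist1h2ao with Hist1h2ap, Hist1h2bq with Hist1h2br and Hist1h4m with Hist1h4n were identical. Reads can therefore be split between copies, and single core histone genes are less certain than their class. The H1 genes are the exception, with no pair above 84.6% identity. All 18 H2A genes, and 21 members in all, overlapped an annotated gene on the opposite strand, and whether the counting used strand is not given in the sources used here. The gene length behind each RPKM was within 2% of the annotated exonic length for 43 members, shorter for 17 (743 against 7425 bases for Hist1h1d) and longer for 6 (1889 against 381 for Hist2h2bb), which sets the level of a gene but not its difference between genotypes.

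H1 genes had the highest levels per length. Averaged over the 12 libraries they made up 42.7% of the summed RPKM of the 66 members, against 30.0% for H2A, 12.8% for H2B, 7.35% for H3 and 7.17% for H4. The highest members were Hist1h1d at 272 RPKM, Hist1h1e at 252, Hist1h1c at 152 and Hist1h1a at 101, followed by the H2A gene Hist2h2ac at 86.3. Hist1h1b, at 53.2, came just below Hist2h2aa2, at 55.2. The 2 highest members of the other classes were Hist1h2bm at 26.7 and Hist2h2bb at 25.1 for H2B, Hist1h3b at 21.7 and Hist1h3c at 21.5 for H3, and Hist1h4d at 27.3 and Hist1h4h at 18.2 for H4. Hist1h1d and Hist1h1e, and the pairs of H2B and H3 genes, lay closer to each other than their spread over libraries. The within-genotype SD of log2 RPKM had a median of 0.29 over the H1 genes, 0.34 over H2A, 0.54 over H2B, 0.63 over H3 and 0.90 over H4, against 0.49 over all genes tested, so the H3 and H4 values were the least repeatable. This order was also that of falling median read number, from 5044 reads for H1 to 361 for H2A, 198 for H2B, 192 for H3 and 138 for H4.

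The summed RPKM of all members was 1938, 1306 and 1821 in the wild-type libraries, 1865, 2614 and 2785 in NrasG12D/+, 1428, 1525 and 1786 in Tet2+/- and 1953, 2359 and 1988 in the compound genotype. The 3 compound values lay above all wild-type and Tet2+/- values, and the lowest NrasG12D/+ value lay within the wild-type range. As mean ± SD over 3 libraries these are 1688 ± 336, 2421 ± 490, 1579 ± 185 and 2100 ± 225. The share of all gene reads that fell in the members was 0.0948% to 0.139% in wild type, 0.129% to 0.191% in NrasG12D/+, 0.0988% to 0.125% in Tet2+/- and 0.138% to 0.169% in the compound genotype. Single libraries stood out. NrasG12D/+ replicate 3 was the highest of the 12 for 38 members, 15 of them H2A, 11 H2B and 10 H3, but for no H1 gene; NrasG12D/+ replicate 2 was the highest for 4 of the 5 H1 genes. Tet2+/- replicate 1 was the lowest for 24 members, 13 of them H2B, and wild-type replicate 2 for 16, of which 9 were H2A and 4 H1.

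**Figure D1:**
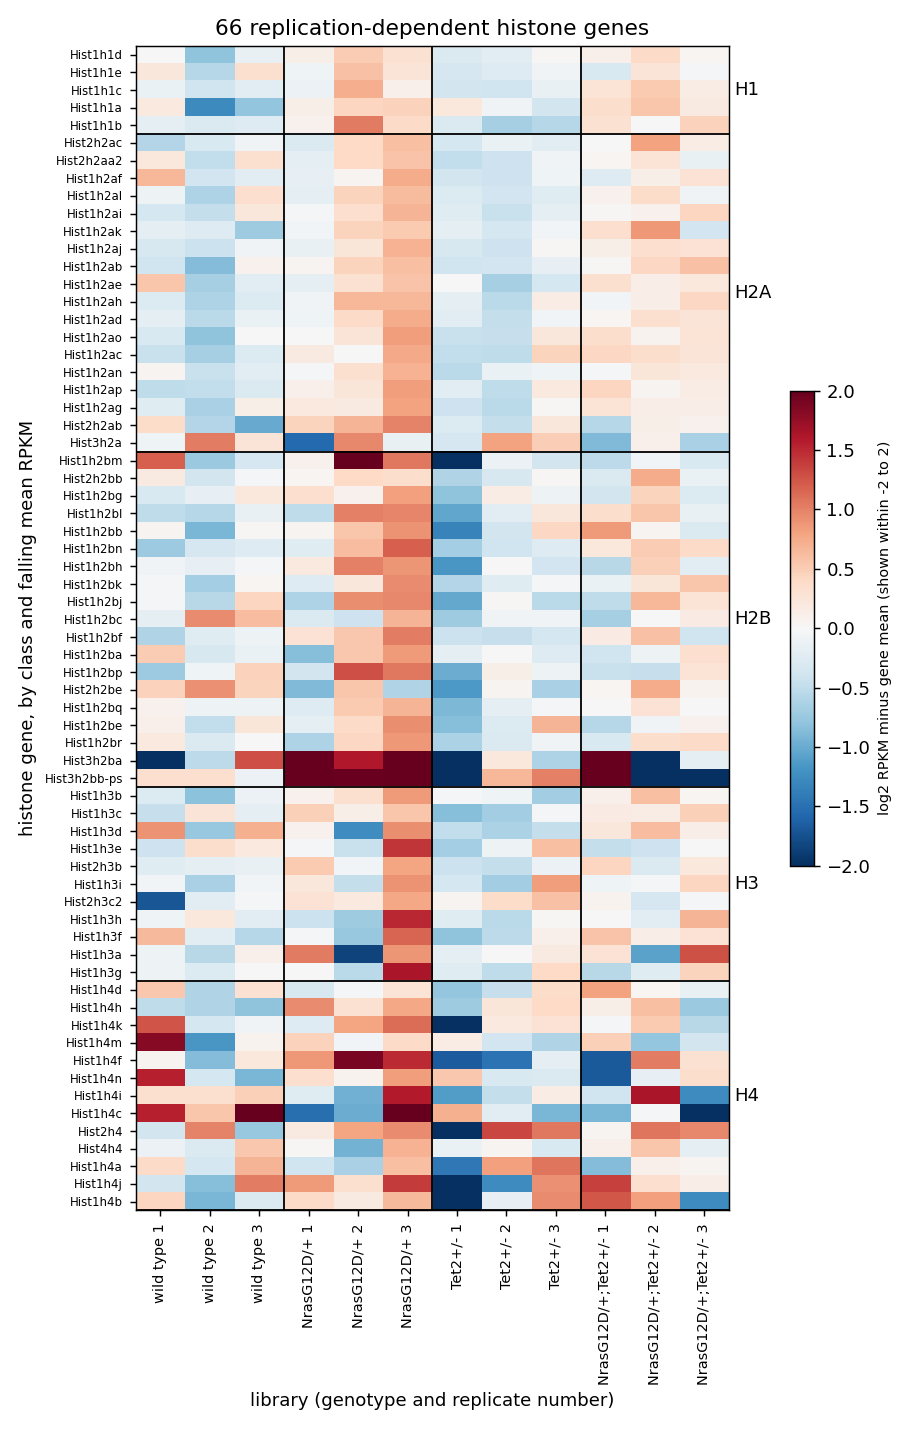
Heat map of the 66 histone genes (rows, by class and falling mean RPKM) in the 12 libraries (columns, by genotype and replicate number), coloured by log2 RPKM minus the gene's mean over the 12 libraries and shown within -2 to 2. Red runs through NrasG12D/+ replicate 3, the highest library for 38 members, and blue through Tet2+/- replicate 1, the lowest for 24.

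The first question was how the Nras allele alone differed from wild type. Most histone genes had higher values in NrasG12D/+, with a median log2 difference of 0.53 over the members and 0.013 over all genes tested. The difference was above 0 for 57 of the 66 members, while it was above 0 for 51.3% of all genes tested. By limma on log2 RPKM with Benjamini-Hochberg adjustment over all genes, no member passed an adjusted p of 0.05 (0.00646% of all genes did). At an unadjusted p under 0.05, 24 members were higher and 0 were lower, where 3.19% of all genes tested were higher and 2.42% were lower. The same count was 6 with limma-voom on recovered reads. Here and below, the shares of all genes are those of the main limma fit. None is given for counts from voom or with a library left out, so those counts have no share to be read against. All 3 NrasG12D/+ values lay above all 3 wild-type values for 22 members (5.27% of all genes tested), and for 0 did they all lie below (4.48%). The count of 24 was 12 when either wild-type replicate 2 or NrasG12D/+ replicate 3 was left out, and without the latter the median difference was 0.35. The count of lower members was 2 without NrasG12D/+ replicate 2 and 1 without NrasG12D/+ replicate 3.

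The H1 genes, which bind linker DNA, were above 0 in 5 of 5 cases, and 4 reached an unadjusted p under 0.05. Hist1h1b was at 44.3, 41.2 and 41.9 RPKM in wild type and at 53.6, 103 and 65.8 in NrasG12D/+. Its groups did not overlap, and the log2 difference was 0.75 ± 0.22 (SE), a 1.68-fold difference with an adjusted p of 0.851. Hist1h1d was at 265, 152 and 238 RPKM in wild type and 287, 379 and 328 in NrasG12D/+, with no overlap and a log2 difference of 0.63 ± 0.21. Hist1h1c was at 135, 112 and 127 against 137, 244 and 158 RPKM, so the groups were apart by a narrow gap and NrasG12D/+ replicate 2 was the high one. Its log2 difference was 0.48 ± 0.20. Hist1h1a overlapped, since wild-type replicate 1 was at 110 RPKM while the other wild-type libraries were at 39.8 and 55.3, and the NrasG12D/+ libraries were at 103, 129 and 131. Hist1h1e differed least, at 286, 165 and 308 RPKM in wild type against 230, 368 and 294. Its log2 difference of 0.26 had a 95% interval from -0.31 to 0.83, and it was -0.022 without wild-type replicate 2. Hist1h1e is also the H1 gene whose annotation overlaps another member on the same strand, Hist1h2be.

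**Figure D2:**
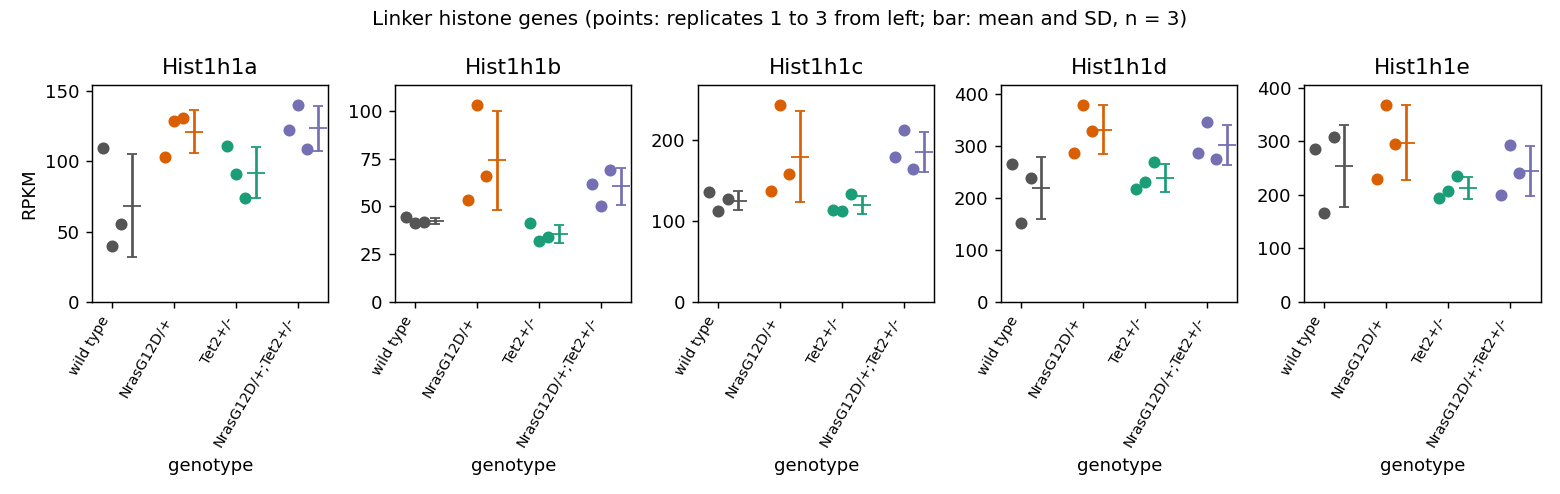
RPKM of the 5 linker histone genes in each library (points, replicates 1 to 3 from left) with the mean and SD of 3 libraries, by genotype, on axes that start at 0. Hist1h1b, Hist1h1c and Hist1h1d are higher in all 6 libraries with the Nras allele than in all 6 without it, while the genotypes overlap for Hist1h1a and Hist1h1e. After scaling the libraries to equal medians, Hist1h1c and Hist1h1d overlap between carriers and non-carriers as well.

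H2A and H2B pair into the dimers at the edges of the core particle. Of the 18 H2A genes 17 were above 0, with a median log2 difference of 0.60, and 12 reached an unadjusted p under 0.05. Hist1h2ap was at 16.6, 16.6 and 19.3 RPKM in wild type and 25.3, 27.9 and 41.8 in NrasG12D/+, a log2 difference of 0.82 ± 0.22 with an adjusted p of 0.816. Every NrasG12D/+ library was above every wild-type one, and replicate 3 was the highest. Hist2h2ab was at 12.6, 6.52 and 4.91 against 13.4, 15.8 and 19.6 RPKM, a log2 difference of 1.12 ± 0.35, again with no overlap. The most abundant H2A gene, Hist2h2ac, overlapped: 55.4, 67.3 and 78.8 RPKM in wild type against 68.2, 109 and 126. The 1 H2A gene below 0, named after its value was seen, was Hist3h2a on chromosome 11, with a log2 difference of -0.64 and with both groups spread widely, from 6.71 to 14.5 RPKM in wild type and from 2.44 to 13.9 in NrasG12D/+.

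Of the 19 H2B genes 17 were above 0, with a median of 0.53, but 3 reached an unadjusted p under 0.05. Hist1h2bf was at 8.15, 10.5 and 11.6 RPKM in wild type and 15.1, 18.0 and 25.2 in NrasG12D/+, a log2 difference of 0.93 ± 0.26. Hist1h2bn was at 10.6, 14.0 and 14.8 against 15, 27.0 and 40.3 RPKM, a log2 difference of 0.96 ± 0.30 in which replicate 1 sat just above the wild-type range. Neither of these genes overlapped between the genotypes. Hist1h2bm, the H2B gene with the highest mean, varied widely within genotypes, at 46.3, 12.1 and 16.1 RPKM in wild type and 21.5, 93.0 and 42.1 in NrasG12D/+. Hist2h2be went the other way, at 5.0, 6.83 and 4.93 against 1.97, 5.35 and 2.39 RPKM, a log2 difference of -0.91 ± 0.43 with overlap. Hist3h2ba and Hist3h2bb-ps had the largest log2 differences, 3.07 and 2.65, and these rest on few reads, with a median of 13 and 11.5 reads over the libraries.

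H3 and H4 form the tetramer at the centre of the core particle. Of the 11 H3 genes 10 were above 0 and 3 reached an unadjusted p under 0.05, with a median of 0.47. Hist1h3b was at 17.0, 11.7 and 19.1 RPKM in wild type and 21.9, 25.8 and 37.4 in NrasG12D/+, without overlap, a log2 difference of 0.83 ± 0.27. Hist2h3c2 was at 2.95, 8.22 and 9.43 against 11.7, 11 and 16.4 RPKM, a log2 difference of 1.07 ± 0.38. Of the 13 H4 genes 8 were above 0, with a median of 0.27, and 2 reached an unadjusted p under 0.05. Those were Hist1h4h, at 11.7, 10.9 and 9.50 RPKM in wild type and 32.1, 20.5 and 28.4 in NrasG12D/+, and Hist1h4f, at 11.8, 6.17 and 13.0 against 20.6, 41.9 and 31.6. Both were without overlap, with log2 differences of 1.31 ± 0.36 (adjusted p 0.816) and 1.62 ± 0.66. Hist1h4c, named after its value was seen, had the lowest difference of all members, -1.58, from 10.8, 5.40 and 16.7 RPKM in wild type to 1.29, 1.84 and 15.5 in NrasG12D/+, where replicate 3 was within the wild-type range.

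**Figure D3:**
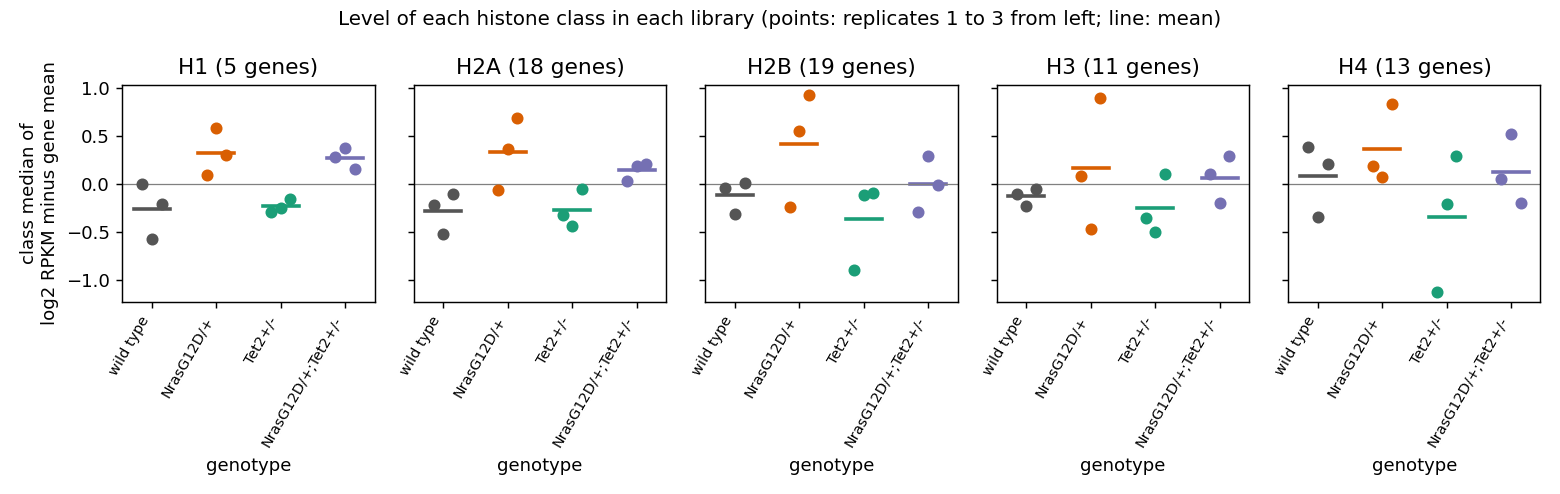
Median over the members of each class of log2 RPKM minus the gene's mean over the 12 libraries, for each library (points, replicates 1 to 3 from left; line, mean of 3 libraries), by genotype. For H1 the 6 libraries with the Nras allele lie between 0.090 and 0.59 and the 6 without it between -0.57 and -0.0032. For H2A, H2B, H3 and H4 the libraries with and without the allele overlap.

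The same allele was compared on the Tet2+/- background, compound against Tet2+/-, with 6 libraries that do not enter the log2 differences above. The fit takes 1 estimate of the spread from all 12 libraries, so the p-values of the 2 comparisons are not independent. The median log2 difference over members was 0.46 (over all genes -0.026), and 58 of 66 were above 0 where 47.1% of all genes tested were. No member passed an adjusted p of 0.05 by limma (0.00646% of all genes did), and 7 were higher and 0 lower at an unadjusted p under 0.05 (2.58% and 2.87% of all genes). Voom, for which no share of all genes is given, had 2 higher. The groups were apart with the compound values higher for 18 members (6.22% of all genes tested) and with them lower for 0 (6.53%). The count of 7 was 3 without Tet2+/- replicate 1, 4 without compound replicate 2 and 14 without Tet2+/- replicate 3, and the median was 0.28 without Tet2+/- replicate 1.

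By class, 5 of 5 H1, 17 of 18 H2A, 17 of 19 H2B, 9 of 11 H3 and 10 of 13 H4 genes were above 0. Hist1h1b was at 41.1, 31.6 and 34.1 RPKM in Tet2+/- and 61.9, 50.2 and 69.3 in the compound genotype, without overlap, a log2 difference of 0.76 ± 0.22 (adjusted p 0.656). Hist1h1c was at 114, 112 and 133 against 179, 212 and 164 RPKM, a log2 difference of 0.63 ± 0.20, and here too the groups were apart. Hist1h3c was at 11.4, 12.7 and 20.2 in Tet2+/- and 23.1, 22.7 and 28.7 in the compound genotype, a log2 difference of 0.79 ± 0.25. Hist1h2ab was at 22.2, 22.3 and 26.1 against 29.8, 39.0 and 43.6 RPKM, a log2 difference of 0.66 ± 0.24. Each of these 4 genes had all 3 compound values above all 3 Tet2+/- values.

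Counted over both backgrounds, 52 of 66 members (78.8%) were above 0 in both, against 26.6% of all genes tested. These were 5 of 5 H1, 17 of 18 H2A, 15 of 19 H2B, 8 of 11 H3 and 7 of 13 H4 genes. There were 3 members below 0 in both, named after their values were seen, and they were Hist3h2a, Hist1h4a and Hist1h4c. The test of whether the Nras difference depended on Tet2 (the interaction) called no member (0.0129% of all genes), with 1 member higher and 2 lower at an unadjusted p under 0.05 (1.43% and 1.95% of all genes). These were Hist2h2be at 1.78 ± 0.61, Hist2h3c2 at -1.50 ± 0.54 and Hist1h4h at -1.29 ± 0.51 on the log2 scale. Hist2h3c2 was at 10.0, 12.4 and 14.5 RPKM in Tet2+/- and 10.2, 7.65 and 9.40 in the compound genotype, and Hist1h4h at 10.2, 19.6 and 21.9 against 18.1, 25.2 and 9.96, so neither kept on the Tet2+/- background the gap it had on the wild-type one. For Hist1h1b the interaction was 0.0093, with a 95% interval from -0.68 to 0.70. The median interaction over members was -0.086, and its sign changed when wild-type replicate 2 (0.028) or NrasG12D/+ replicate 3 (0.065) was left out. With 1 library left out at a time, 1 to 3 members were higher and 1 to 4 lower at an unadjusted p under 0.05.

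**Figure D4:**
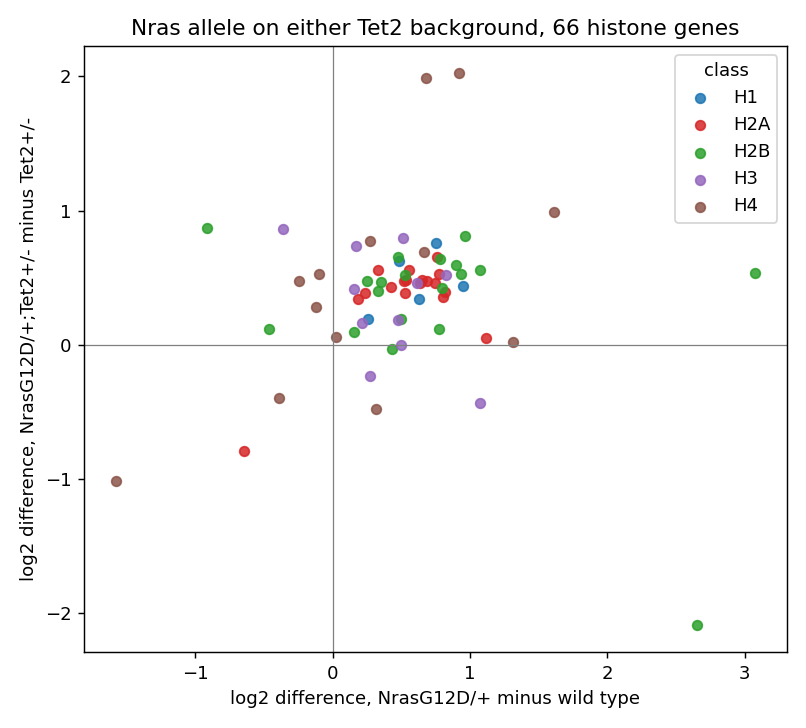
Log2 difference of each of the 66 histone genes (points, coloured by class) for NrasG12D/+ minus wild type (x axis) and for NrasG12D/+;Tet2+/- minus Tet2+/- (y axis), which share no library. The upper right field holds 52 of the 66 genes and the lower left 3; the 2 points farthest to the right are Hist3h2ba and Hist3h2bb-ps, which rest on few reads.

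With both backgrounds averaged, 6 libraries with the Nras allele stood against 6 without it. The median log2 difference was 0.49 and 60 of 66 members were above 0 (48.9% of all genes tested). None passed an adjusted p of 0.05 (0.0323% of all genes did), 28 were higher and 0 lower at an unadjusted p under 0.05 (3.87% and 3.37%), and voom gave 13 higher. The 28 were 4 H1, 14 H2A, 5 H2B, 3 H3 and 2 H4 genes. In 6 members every library with the allele was above every library without it (0.459% of all genes tested): Hist1h1b, Hist1h1c, Hist1h1d, Hist1h2ag (named after its values were seen), Hist1h2bn and Hist1h3b. Hist1h1b had the smallest p, with a log2 difference of 0.76 ± 0.15, a 1.69-fold difference with an adjusted p of 0.248. Hist1h2bn followed among these 6 at 0.89 ± 0.21 (1.85-fold, adjusted p 0.325), and Hist1h1c was at 0.55 ± 0.14 (adjusted p 0.358). The highest member, Hist1h1d, was at 0.49 ± 0.15, and Hist1h3b at 0.67 ± 0.19. Hist1h2ab and Hist1h2bf, at 0.71 ± 0.17 and 0.73 ± 0.18, each overlapped between carriers and non-carriers. Without NrasG12D/+ replicate 3 the count of 28 was 22 and the median 0.37. After scaling the libraries to equal medians, 5 members were apart in place of 6, and Hist1h1c and Hist1h1d overlapped.

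The compound genotype was also set against wild type, a comparison that shares its libraries with those above. The median was 0.30, 49 of 66 members were above 0 (51.6% of all genes tested), no member passed an adjusted p of 0.05 (0.00646%), and 15 were higher and 1 lower at an unadjusted p under 0.05 (3.36% and 3.06%). Of the 15, 4 were H1 and 9 H2A genes. The compound values were all above the wild-type ones for 14 members (6.09%). Hist1h1a had a log2 difference of 0.98 ± 0.31 (adjusted p 0.754), with compound libraries at 122, 141 and 109 RPKM against the wild-type 110, 39.8 and 55.3, where replicate 1 overlapped. Hist1h2ac was at 34.6, 33.4 and 31.1 RPKM against 19.2, 16.4 and 21.5, without overlap, a log2 difference of 0.80 ± 0.27. Hist1h1e was at 200, 292 and 241 RPKM in the compound genotype against 286, 165 and 308 in wild type, a log2 difference of -0.016 with a 95% interval from -0.58 to 0.55. Leaving out either wild-type replicate 2 or compound replicate 2 brought the count of 15 to 5, and voom gave 3. The median was 0.16 without wild-type replicate 2, and 0.16 over the 16 members less than 95% identical to any other.

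Next, Tet2+/- alone was compared with wild type. Values were slightly lower for most members, with a median log2 difference of -0.16 (0.038 over all genes) and 47 of 66 below 0 (45.7% of all genes tested). No member passed an adjusted p of 0.05 (0.00646%), and at an unadjusted p under 0.05 there were 1 higher and 1 lower (1.82% and 1.54% of all genes). Of the H2B genes 18 of 19 were below 0 and of the H4 genes 12 of 13, while 10 of 18 H2A genes were above 0. These counts moved with single libraries, to 4 lower without wild-type replicate 2, to 3 lower without NrasG12D/+ replicate 3 or Tet2+/- replicate 3, and to 3 higher and 0 lower without Tet2+/- replicate 1. Without Tet2+/- replicate 1, the lowest library for 13 of the 19 H2B and 6 of the 13 H4 genes, the median over all members was 0.0070. Dropping the wild-type libraries in turn gave -0.073 (replicate 1), -0.29 (replicate 2) and -0.043 (replicate 3). Hist2h2be was the 1 lower member, at 1.63, 3.76 and 2.31 RPKM in Tet2+/- against 5.0, 6.83 and 4.93, without overlap, a log2 difference of -1.19 ± 0.43. Hist2h3c2 was the 1 higher member, at 0.99 ± 0.38. For the H1 genes the 95% intervals of the Tet2 difference ran from -0.50 to 0.38 for Hist1h1c and from -0.30 to 0.62 for Hist1h1d, so differences of such sizes in either direction could not be told from 0.

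Adding Tet2+/- to NrasG12D/+ gave a median of -0.18, with 54 of 66 members below 0 (50.8% of all genes tested). No member passed an adjusted p of 0.05 (0% of all genes), and 0 were higher and 4 lower at an unadjusted p under 0.05 (1.89% and 2.15%). Hist2h2ab was at 6.62, 10.7 and 10.5 RPKM in the compound genotype, below all NrasG12D/+ libraries, at -0.83 ± 0.35. Hist1h2bh was at 11.6, 23.7 and 14.6 RPKM against 19.5, 34.2 and 31.4 in NrasG12D/+, and Hist1h4f at 3.53, 23.0 and 14.0 against 20.6, 41.9 and 31.6. Both overlapped, at -0.79 ± 0.34 and -1.53 ± 0.66. The fourth, the pseudogene Hist3h2bb-ps, had no read in 2 of the 3 compound libraries and 4.70 RPKM in the other, so its fitted difference of -5.40 depends on how 0 reads are treated. The count of 4 rested on single libraries: it was 9 without NrasG12D/+ replicate 1, 2 without NrasG12D/+ replicate 2, compound replicate 1 or compound replicate 3, and 0 without NrasG12D/+ replicate 3, where 1 member was higher. Voom gave 1 lower. Without NrasG12D/+ replicate 3 the median over members was 0.0093, and it was -0.36 without NrasG12D/+ replicate 1 and -0.10 without compound replicate 1. The log2 differences of the 5 H1 genes ran from -0.28 for Hist1h1e to 0.081 for Hist1h1c.

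Averaged over both Nras genotypes, the Tet2 allele had a median of -0.19, with 52 of 66 members below 0 (47.5% of all genes tested), among them 19 of 19 H2B and 12 of 13 H4 genes. None passed an adjusted p of 0.05 (0%), 0 were higher and 3 lower at an unadjusted p under 0.05 (1.87% and 1.93%), and 0 members separated the 6 libraries with the allele from the 6 without it in either direction (0.0646% of all genes each way). The 3 were Hist1h4f at -1.22 ± 0.46, Hist1h2bh at -0.61 ± 0.24 and Hist1h2bm at -1.15 ± 0.47. The count of 3 was 8 without NrasG12D/+ replicate 1. It was 6 when compound replicate 2, Tet2+/- replicate 3 or wild-type replicate 2 was dropped. It was 1 without wild-type replicate 3, NrasG12D/+ replicate 2, NrasG12D/+ replicate 3 or compound replicate 3, 1 with voom, and 0 without Tet2+/- replicate 1. The median was -0.056 without NrasG12D/+ replicate 3, -0.28 without NrasG12D/+ replicate 1, and -0.13 without either Tet2+/- replicate 1 or wild-type replicate 1 (1 library left out at a time).

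Properties of the genes were set beside the Nras difference against wild type. Members with the stem-loop had a median of 0.53 (33 of 39 above 0) and coding members without a match 0.51 (21 of 24). Members with an annotated 3′ UTR of 200 bases or fewer had a median of 0.61 (40 of 41 above 0), and those with more 0.27 (14 of 22). On the Tet2+/- background the same medians were 0.46 and 0.47. The 16 members less than 95% identical to any other had a median of 0.56, and the 47 more alike 0.52. Members with CCAAT in the promoter window had a median of 0.53 (43 of 48 above 0) and those without it 0.31 (7 of 9), 9 genes that are all of class H4. On the Tet2+/- background these medians were 0.46 with CCAAT and 0.48 without it, and for the averaged Nras allele 0.51 and 0.52. These are descriptions of the same libraries and no test was made between the subsets.

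There were 13 pairs of H2A and H2B genes that start back to back, with 173 to 302 bases between their starts and so with a shared promoter region. In all 13 the H2A gene had the higher mean RPKM. Across the 12 libraries the log2 RPKM of partners had a median Pearson r of 0.55, from -0.045 to 0.82, and the 329 other H2A with H2B combinations had 0.54. By class, the median r was highest between H2A genes, at 0.70, and between H1 genes, at 0.65, and it was 0.63 between H1 and H2A genes, 0.25 between H3 and H4 genes and 0.15 between H1 and H3 genes. These values are over 12 libraries that differ in genotype and depth. The H3 and H4 classes had the lowest median reads, 192 and 138, with H2B close to H3 at 198. H2A genes shared a median of 67.35% of their 50-base windows with other members, and whether this raised their r was not tested.

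The levels of cell cycle genes were compared over the same libraries. The summed RPKM of 12 G2/M genes was 130 to 200 in wild type, 276 to 301 in NrasG12D/+, 154 to 162 in Tet2+/- and 271 to 312 in the compound genotype, so all 6 libraries with the Nras allele were above all 6 without it. With the allele averaged over backgrounds, 12 of 12 were above 0 with a median log2 difference of 0.78, and 1 passed an adjusted p of 0.05 (48.9% and 0.0323% of all genes tested). For 18 S phase genes the sums were 292 to 371, 383 to 429.5, 296 to 359.7 and 337 to 399, which overlapped, and 18 of 18 were above 0 with a median of 0.29 and none passing. NrasG12D/+ replicate 3 had the highest S phase sum, 429.5, and wild-type replicate 2 the lowest, 292. Tet2+/- replicate 1, the lowest library for 24 histone members, had the highest S phase sum of its genotype, 359.7, which was also above wild-type replicate 1 (354) and compound replicate 2 (337). The median over the S phase genes of log2 RPKM minus the gene's mean gave another order. By it Tet2+/- replicate 1, at -0.057, was highest of its genotype but below wild-type replicate 1 (0.055) and compound replicate 2 (0.044). In RNA from sorted populations, more cells in S phase and more histone RNA in each cannot be told apart, and the part of cell cycle genes in the histone differences was not tested. Of the other marker lists, the 6 megakaryocyte genes had summed RPKM of 25.3 to 36.0 in wild type, 33.7 to 57.3 in NrasG12D/+, 24.2 to 32.3 in Tet2+/- and 38.5 to 44.3 in the compound genotype, with 5 of 6 above 0 for the averaged Nras allele and 0 passing, and their part in the result was not tested either. The 12 genes of the stem cell and gate list had sums of 222 to 262, 199 to 243, 253.5 to 263 and 213 to 247.5 RPKM in the same order. Of the 11 tested, 3 were lower and 1 higher at an unadjusted p under 0.05 for the averaged Nras allele (3.37% and 3.87% of all genes tested). Their median was -0.13, and none passed an adjusted p of 0.05. In compound against Tet2+/- 3 were lower and 0 higher (2.87% and 2.58% of all genes tested). In that comparison 3 had all compound values below all Tet2+/- values (6.53%). Hlf, a stem cell transcription factor gene named after its values were seen, was at 47.1 to 63.5 RPKM in wild type, 38.6 to 53.0 in NrasG12D/+, 65.8 to 68.1 in Tet2+/- and 44.8 to 52.4 in the compound genotype. The part of these genes in the histone differences was not tested.

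The genes that supply histones were followed on a list of 45, of which 44 were in the table and 43 were tested. None passed an adjusted p of 0.05 in any of the 8 comparisons, where 0% to 0.0323% of all genes tested did. For NrasG12D/+ against wild type, 33 of 43 were above 0 (51.3% of all genes tested) with a median of 0.15, and 3 were higher and 0 lower at an unadjusted p under 0.05 (3.19% and 2.42%). Of the 8 genes for transcription of the clusters 7 were above 0 (median 0.37), of 15 for stem-loop binding and 3′ end cleavage 10 (median 0.10), of 8 for translation and decay of histone mRNA 7 (median 0.13), and of 12 for chaperones and acetylation of new histones 9 (median 0.14). Slbp, named for its role, was at 4.62 ± 0.74 RPKM in wild type and 5.83 ± 0.83 in NrasG12D/+ (mean ± SD over 3 libraries), and Npat at 10.2 ± 3.1 and 11.9 ± 1.1. The 2 with the smallest p were Lsm1, a subunit of the ring that starts mRNA decay, at 0.92 ± 0.30 on the log2 scale (adjusted p 0.860), and Asf1b, a chaperone that carries H3 with H4, at 1.58 ± 0.58. With the Nras allele averaged over backgrounds, the smallest p was that of Ccne2, a cyclin E, at 1.15 ± 0.27 (adjusted p 0.314), with group means of 1.74 RPKM in wild type, 2.74 in NrasG12D/+, 0.738 in Tet2+/- and 2.43 in the compound genotype. Ccne2 also had the smallest p on the list in compound against Tet2+/- (1.70 ± 0.38, adjusted p 0.511) and in Tet2+/- against wild type (-1.23 ± 0.38). Ccne1, the other cyclin E, named after its values were seen, had fitted differences of the opposite sign in both, at -3.07 and 3.43. It was at 3.97 for NrasG12D/+ against wild type. None of these 3 reached an unadjusted p under 0.05, so their direction is not settled. The other chaperone of this family, Asf1a, was lowest in the compound genotype, at 4.64 RPKM against 11.2 in wild type, 13.9 in NrasG12D/+ and 11.4 in Tet2+/-, and against NrasG12D/+ its log2 difference was -2.05 ± 0.60 with overlapping groups.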

How the data were processed

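RNA-seq of 12 libraries (3 per genotype) was read from 1 table of log2 RPKM per gene that the authors deposited. CASAVA 1.8.2, TopHat2, edgeR and the mm10 genome are named in the submitters' processing notes, per the labels; strand settings, filters and gene models are not given in the sources used here. Read as log2 RPKM with a mean prior of 0.25 reads, the deposited values gave whole reads for all 18546 genes (within 0.001). The effective library sizes they imply, relative to the read totals, ran from 0.983 to 1.04 around their mean. Genes with at least 1 RPKM in 3 libraries (15478) entered linear models in limma 3.58.1 under R 4.3.3 (variance trend, 1 mean per genotype, 8 residual degrees of freedom), with Benjamini-Hochberg adjustment over all of them and a threshold of 0.05. Differences are on that log2 scale, which holds the prior; 0 reads allow up to 3. "Apart" means that the groups' values do not overlap. The code was tested on data simulated from each gene's mean and spread, for NrasG12D/+ against wild type. At an adjusted p of 0.05 it recovered 16% of 100 genes changed by 1 log2 unit and 40% of 100 changed by 2, with 2 false calls. A gene that does not pass is therefore not shown to be unchanged. The genes named are all H1 members, the 2 highest of each other class, the 4 members with the smallest unadjusted p under 0.05 in each comparison, the members nearest the RPKM limit, and the supply genes with the smallest p; other members appear for their sequence or annotation, or are marked as named after their values were seen. The members, lists and tests were chosen with earlier results of these data known.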

Additional observations from a re-analysis of the deposited data

How the results depend on the processing

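The limits are 3 libraries a genotype and, for H3 and H4, few reads per gene. No member passed an adjusted p of 0.05 in any of the 8 comparisons under any alternative run (filters, pseudocount, scaling, samples in the fit, weights, no variance trend, voom, replicate block, each library left out). The numbers of members higher and lower at an unadjusted p under 0.05 moved. The shares of all genes tested in the report are those of the main fit. No such share is set beside the counts under other runs, so those counts show only how the members' numbers moved. For those higher, with limma-voom on recovered reads the number was 6 for NrasG12D/+ against wild type (24 in the report), 3 for compound against wild type (15), 2 for compound against Tet2+/- (7) and 13 for the averaged Nras allele (28). Leaving out wild-type replicate 1 and NrasG12D/+ replicate 2 together gave 15 for NrasG12D/+ against wild type and 8 for compound against wild type. Without the variance trend compound against wild type had 7, and with only the groups compared in the fit compound against Tet2+/- had 16. With 1 library left out at a time the counts ran from 12 to 31, 5 to 15, 3 to 14 and 22 to 35 in the same order as above. The replicate numbers did not pair the libraries (correlations of deviations from -0.125 to 0.136), and a replicate block gave 14 higher for compound against Tet2+/- and changed no other count of higher members by over 1.5 times. With the replicate block the counts of lower members were 1 for NrasG12D/+ against wild type, compound against Tet2+/- and the averaged Nras allele (0 in the report), 2 for Tet2+/- against wild type (1), 3 for compound against wild type (1) and 5 for the averaged Tet2 allele (3). Library weights gave 1 lower for NrasG12D/+ against wild type and for the averaged Nras allele, 3 for compound against wild type, 8 for compound against NrasG12D/+ (4), 5 for the interaction (2), 6 for the averaged Tet2 allele, and 3 higher and 2 lower for Tet2+/- against wild type (1 and 1). Voom gave 0 lower for compound against wild type and the interaction, 1 for compound against NrasG12D/+ and the averaged Tet2 allele, and 0 higher for Tet2+/- against wild type. With only the groups compared, Tet2+/- against wild type had 0 higher and 3 lower and compound against NrasG12D/+ 2 lower, and without the variance trend the latter had 1. Without wild-type replicate 1 and NrasG12D/+ replicate 2 together, 2 were lower for NrasG12D/+ and for Tet2+/- against wild type, 4 for the interaction and 1 for each averaged allele, and 1 was higher for the averaged Tet2 allele and for compound against NrasG12D/+. With 1 library left out, the lower counts ran from 0 to 2 for NrasG12D/+ and for compound against wild type, 0 to 4 for Tet2+/- against wild type, 0 to 9 for compound against NrasG12D/+, 0 to 1 for compound against Tet2+/- and the averaged Nras allele, 1 to 4 for the interaction and 0 to 8 for the averaged Tet2 allele. The higher counts ran from 0 to 3 for Tet2+/- against wild type, 0 to 1 for compound against NrasG12D/+ and the averaged Tet2 allele, and 1 to 3 for the interaction. The median log2 difference ran, with 1 library left out, from 0.35 to 0.71 for NrasG12D/+ against wild type, 0.28 to 0.56 for compound against Tet2+/-, 0.16 to 0.35 for compound against wild type and 0.37 to 0.58 for the averaged Nras allele. With library weights the median interaction was -0.42. With the libraries scaled to equal medians, 19 members were apart and higher for NrasG12D/+ against wild type (22 in the report). The same count was 19 for compound against Tet2+/- (18), 13 for compound against wild type (14) and 5 for the averaged Nras allele (6). Without Hist1h1d, the member with the highest RPKM, the mean sum was 1341 in Tet2+/- and 1798 in the compound genotype. Hist1h1e changed sign: against wild type it ran from -0.022 (without wild-type replicate 2) to 0.43 in NrasG12D/+ with 1 library left out, and in the compound genotype it was 0.068 with quantile normalization, 0.13 with library weights, 0.098 without wild-type replicate 1 and NrasG12D/+ replicate 2 together, and -0.30 to 0.15 with 1 library left out, above 0 without wild-type replicate 1 or 3 or compound replicate 1. Apart from settings that use fewer libraries, the cause was not tested.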
